A study of Mus musculus with 2 samples.

Results

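The regions described are the long-isoform-only extensions of mouse 3′UTRs, the stretches of untranslated RNA beyond the end of a gene's shortest annotated 3′UTR. They were taken from GENCODE M21 on GRCm38. A protein-coding gene entered when 2 or more complete transcripts shared a stop codon, each with its 3′UTR in 1 exon, and when these 3′UTRs differed in length by at least 500 nt. The part up to the end of the shortest 3′UTR is called the shared part, and everything beyond it, less the last 100 nt before the longest annotated end, is called the extension. Where a gene had more than 2 annotated ends, transcripts other than the longest can carry part of the extension too. Of 21951 protein-coding genes, 3145 (14.3%) met the rule, each with 1 extension. The rule used the annotation only and no measured value. Individual-nucleotide crosslinking and immunoprecipitation (iCLIP) of Tia1 had been carried out on the cytoplasm of primary splenic B cells of C57BL/6 mice, stimulated with lipopolysaccharide (LPS, 10 µg/ml) for 48 h. There were 2 replicates in this 1 group, which the study describes as independent experiments, and no control sample was analysed here. The sample titles name Tia1 while the antibody field of the labels names the related protein Tial1. The study's methods state that the antibody was specific for Tia1. The protein is called Tia1 here as in the titles. UV light links protein to RNA, reverse transcription stops beside the link, and each unique cDNA start marks a crosslinked nucleotide, here called a site.

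Most mammalian genes can end their mRNA at more than 1 place. The end is set where the cleavage machinery recognises a poly(A) signal, usually AAUAAA or AUUAAA, a short distance upstream of the cut, and a gene that uses an early signal makes a short 3′UTR while read-through to a later signal makes a long one. The extra sequence can carry binding sites for microRNAs and RNA-binding proteins that the short mRNA lacks, and proliferating lymphocytes are known for using early ends more often. Tia1 has several RNA recognition motifs, binds U-rich RNA, and is a core protein of stress granules, where mRNAs are held with stalled translation.

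Examples of the sequence under the sites are shown first, since the crosslinked nucleotides lay mostly on uridine. Each line gives 30 nt of reference RNA (GRCm38, 5′ to 3′ along the transcript), with base 16 being the highest site, over both replicates summed, of the largest cluster of sites in that extension, and with capitals marking runs of 4 or more U. The first 8 are from well-occupied extensions and carry such a run at the site.
Ikzf1, chr11:11771893-11771922, plus strand: uuccucucacugccUUUUUUagccaauaua
Foxp1, chr6:98929390-98929419, minus strand: uuucuuucuuucUUUUUUUUUUUggcuucu
Ebf1, chr11:45006554-45006583, plus strand: ucauuuauagguaUUUUUaguauugUUUUa
Mef2c, chr13:83663568-83663597, plus strand: uguagaagUUUUgUUUUUgaaauguguauu
Zfp36l1, chr12:80108291-80108320, minus strand: ugacgugucuuuccUUUUUUccacagUUUU
Nfkb1, chr3:135584915-135584944, minus strand: aggaaaaacauaUUUUUaaaugaguaccuu
Ptma, chr1:86530569-86530598, plus strand: aaaaagaUUUUUUUUUUccUUUUcuuucug
Rab14, chr2:35181636-35181665, minus strand: UUUUUUUUUUaaUUUUUacacuaUUUUauc
The next 2 are shown because the highest site lay outside any such run, in a G-rich stretch in Pax5 and downstream of a UG repeat in the stress granule gene G3bp2. It also lay outside any such run in other well-occupied extensions, among them Ptbp3, Cd24a, Myl12a and Pcbp2, which are not printed.
Pax5, chr4:44525028-44525057, minus strand: agggacugagggugggacuugggagggacu
G3bp2, chr5:92052676-92052705, minus strand: auauguguguaaauauuucacacaacaaca

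The extensions were much longer than the shared parts. The median extension was 1523 nt long (400 to 37485 nt) and the median shared part 239 nt (1 to 5874 nt). Of the 3145 genes, 1924 had 2 different annotated ends, 755 had 3 and 466 had more. Sequence around the annotated ends differed too. AAUAAA or AUUAAA, searched on the transcribed strand, stood in the last 50 nt before the longest end in 2297 genes (73.0%) and before the shorter end in 875 genes (27.8%), compared with 5.53% of all 50 nt windows of the extensions. A gene is called a hexamer gene below when either hexamer stood before its shorter end. Only the 3′UTR was searched, so the window was cut short in the 466 members with a shared part under 50 nt.

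Replicate 1 held 639108 cDNAs at 342732 low-FDR sites, those the authors called at a false discovery rate (FDR) under 0.05, and replicate 2 held 165081 cDNAs at 93512 sites. Both libraries showed the B cell identity of the sample in the longest annotated single-exon 3′UTRs. Of 9 B cell markers measured there, 7 had cDNAs in both replicates, with 2924 and 666 cDNAs in all, and Cr2 had none. The 9 T cell markers held 4 and 0 cDNAs, with Cd4, Cd8a and Cd28 at 0. The 11 myeloid markers held 32 and 6, the 8 erythroid markers 25 and 3, and the 8 stromal or endothelial markers 90 and 28, of which Pecam1, a gene that B cells can also express, had 86 and 26.

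Tia1 sites were found in 719 of the 3145 extensions in both replicates (22.9%). Replicate 1 placed cDNAs in 1069 extensions, replicate 2 in 739, and 2056 had none in either. The share bound in both replicates was 15.9% of extensions under 1000 nt, 24.4% between 1000 and 2000 nt, 26.4% between 2000 and 4000 nt and 29.3% above 4000 nt, so longer extensions were bound more often. Their density went the other way, from 18.5 to 9.03 cDNAs per kb in replicate 1 and from 4.54 to 1.74 in replicate 2 between the shortest and the longest class. For comparison, 8640 single-exon 3′UTRs outside the rule were split at 239 nt, the median shared length, and treated alike. Their distal part held cDNAs in both replicates in 1785 genes (20.7%). Occupancy of the extensions was therefore near that of other distal 3′UTR sequence, and no test was run on this difference.

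Of the 719 bound extensions, 276 belonged to genes whose shared part was bound in both replicates as well, and 279 to genes with no cDNA in the shared part in either. The reverse, a shared part bound in both replicates beside an extension with no cDNA, was seen in 150 genes. Shared parts were mostly much shorter, and these counts were not compared at equal length. In 1747 members the shared part was 200 nt or longer, a limit chosen after seeing the data. Of these members, 406 had the extension and 439 the shared part bound in both replicates. At least 10 cDNAs in both replicates were held by 355 extensions, at least 25 by 177 and at least 50 by 85. Since no RNA measurement was analysed here, more long mRNA and more binding to each long mRNA cannot be told apart in any of these counts.

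**Figure D1:**
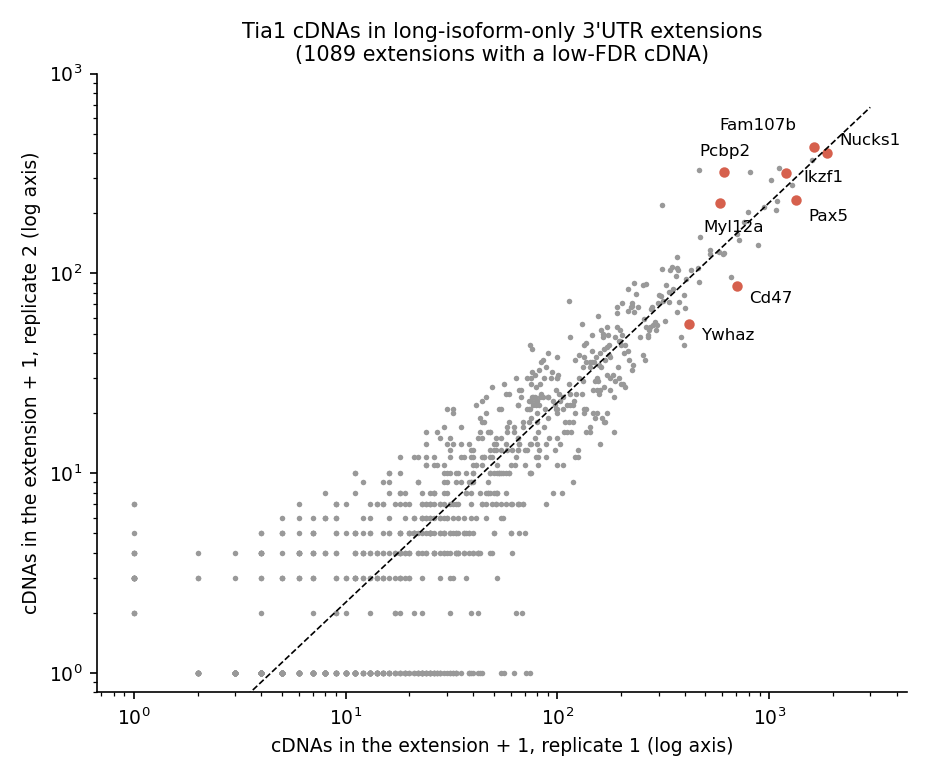
Each point is 1 extension with a low-FDR cDNA in either replicate, plotted by its cDNAs plus 1 in replicate 1 (x) and replicate 2 (y) on log axes. The dashed line is the ratio of the summed extension cDNAs of both replicates, and 8 named genes are marked, with Nucks1 at 1872 and 398 cDNAs near the line and Ywhaz, at 415 and 55, below it.

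Among the 12 extensions with the most cDNAs, 5 belonged to transcription factors of the B lineage and 3 to RNA-binding proteins. Nucks1, which encodes a nuclear DNA-binding phosphoprotein, had the most cDNAs, 1872 in replicate 1 and 398 in replicate 2 over 3542 nt. Fam107b followed with 1618 and 429 over 2417 nt. The extension of Ptbp3, which encodes a polypyrimidine tract-binding protein, held 1593 and 370. Next came Pax5, the factor that keeps B cell identity, with 1336 and 231 cDNAs over 6640 nt. Replicate 1 placed Nucks1 first and replicate 2 placed Fam107b first. The shared part was 9 nt in Pax5, 8 nt in Fam107b and 37 nt in Zfp36l1, so their extensions were nearly the whole 3′UTR, and 466 members had a shared part under 50 nt.

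The other transcription factors lay close behind. Foxp1 held 1284 and 277 cDNAs in its extension, Ikzf1, which encodes Ikaros, 1202 and 316, and Ebf1, required for B cell specification, 1015 and 291. Mef2c, which acts in proliferation after receptor signals, held 1074 and 207. The top 12 were completed by Ccdc50 (1114 and 336), the splicing regulator Celf2 (1090 and 230), the surface glycoprotein gene Cd24a (944 and 215) and Zfp36l1 (813 and 320), whose protein binds AU-rich elements and speeds mRNA decay. Of the 12, Celf2 and Mef2c were hexamer genes, and in the others neither hexamer stood before the shorter end.

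A list of 30 B cell and plasma cell transcription factors was read next. It includes Pax5, Foxp1, Ikzf1 and Ebf1, named above, and was chosen with earlier results of these data known. Its counts are therefore not independent of the ranking above. Of the 30 genes, 16 had an extension under the rule, and 14 of the 16 were bound there in both replicates, beside 22.9% of all members. Their extensions held a median of 196 and 37.6 cDNAs per kb in replicates 1 and 2, whereas the median over all members was 0 in both. The exceptions were Bcl11a and Prdm1. Prdm1, which drives plasma cell differentiation, had 114 and 23 cDNAs in its shared part of 1374 nt and none in its extension of 1016 nt. Bcl11a had 151 and 65 in the shared part and none in the extension. The list holds genes that B cells express, and its share was not compared at equal RNA level.

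The other lists group genes by function and were likewise chosen with earlier results of these data known. They are read against the same 22.9% of all members. They too were not compared at equal RNA level. A bound extension can still hold fewer cDNAs than its length would give, as described further on. RNA-binding regulators had 14 of 15 extensions bound in both replicates. Beside Ptbp3, Celf2 and Zfp36l1, the extension of Pum2, a translational repressor, held 460 and 106 cDNAs. Among stress granule and P-body factors, 5 of 8 were bound in both, led by the deadenylase subunit Cnot6l (375 and 71) and the 5′ to 3′ exonuclease Xrn1 (259 and 36), and G3bp2, a scaffold of stress granules, held 125 and 38. The extensions of Caprin1, Dcp1b and Fxr1 had no cDNA. All 6 extensions of B cell receptor and NF-kB genes were bound in both replicates, with Nfkb1, the p105 and p50 gene, at 364 and 120 cDNAs over 523 nt. The 8 extensions of Rab GTPases, switches of membrane traffic, were all bound in both as well, led by Rab14 at 365 and 105.

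The remaining lists were mixed. For BCL2 family and apoptosis genes, 4 of 7 extensions were bound in both replicates, and Bcl2l11, which encodes the BH3-only protein Bim, held 795 and 201 of the 1038 and 228 cDNAs of the list. For 3′ end processing factors the count was 2 of 5, with 524 and 130 cDNAs in the extension of the poly(A) polymerase gene Papola and none in those of Nudt21 and Pabpn1. It was 2 of 7 for cell cycle regulators, a share near that of all members, of which the antiproliferative gene Btg1 held 190 and 67 and the cyclin gene Ccna2 125 and 29. It was 3 of 6 for p53 and DNA damage genes, of which Mdm4, a p53 inhibitor, held 108 and 17. Of 9 genes known from other systems for alternative 3′UTR ends, 4 were bound in both, among them Cd44 (579 and 127) and Cd47 (704 and 85), and Hmgn2, Nudt21 and Rac1 had no cDNA.

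By density, the order changed. Among extensions with at least 20 cDNAs in each replicate, Cd24a stood first with 909 and 207 cDNAs per kb over 1038 nt in replicates 1 and 2. Myl12a, a myosin regulatory light chain gene, followed with 736 and 284, and Nfkb1 with 696 and 229. Shisa5 had 745 and 165, Fam107b 669 and 177, and the poly(C)-binding protein gene Pcbp2 452 and 237. This is the order of both replicates summed, and replicate 2 alone placed Myl12a first. In all of these genes neither hexamer stood before the shorter end. Myl12a, and Ptma described further on, have close copies elsewhere in the genome. Their counts are uncertain, since the handling of reads with several matches is not stated in the sources.

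The second question was whether a gene's cDNAs lay in its extension in proportion to length. Summed over all members, the extensions held 81174 cDNAs in replicate 1 and the shared parts 43173, a share of 65.3% (exact 95% interval 65.0 to 65.5%). In replicate 2 they held 18344 against 11370, a share of 61.7% (61.2 to 62.3%). The mean was 63.5% ± 2.51 (SD, n = 2), whereas the extensions made up 81.7% of the length. Distal sequence outside the rule, beyond 239 nt, fell short of its length as well, with 77.0% and 72.1% of the cDNAs against 88.4% of the length. In density this was 12.3 cDNAs per kb of extension against 29.1 per kb of shared part in replicate 1, and 2.77 against 7.66 in replicate 2, a ratio of 0.422 and 0.362. The sites of the extensions were also slightly thinner. A single cDNA made up 68.8% and 72.0% of extension sites and 64.6% and 68.0% of shared-part sites in replicates 1 and 2.

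The hexamer at the shorter end divided the members. In the 875 hexamer genes the extensions held 17187 of the cDNAs of replicate 1 (41.7%) and 3391 of those of replicate 2 (33.7%), against 74.8% of the length. In all other members they held 76.9% and 76.1%, against 84.4% of the length. The difference between both sets was 38.9 percentage points ± 5.15 (SD, n = 2), lower for hexamer genes in both replicates. An exact two-sided sign-flip permutation test over 2 replicates gave p = 0.5, the smallest that 2 replicates allow, here and for the extension share against the share of length. In the shared parts of hexamer genes the density reached 41.0 and 11.4 cDNAs per kb, compared with 21.3 and 5.21 in the others. Hexamer genes also had less of their length in the extension, and the part of this in the difference was not tested beyond the length shares given. Members with a shared part under 50 nt, where the searched window was cut short, fell more easily among the others.

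Gene by gene, 555 members had at least 10 cDNAs over both parts in each replicate. A gene was called when the exact 95% interval of its extension share lay wholly above, or wholly below, the share of length in both replicates. By this rule 62 genes (11.2%) were above and 237 (42.7%) below, and 256 were neither. In the gene lists with 6 or more tested genes, stress granule and P-body factors had 0 above and 5 below of 6 tested. Rab GTPases had 0 and 4 of 6, RNA-binding regulators 2 and 5 of 14, and genes known for alternative ends 1 and 5 of 7. B cell and plasma cell transcription factors had 4 and 4 of 15. In the 3′UTRs outside the rule, split at 239 nt, 1105 could be tested, of which 206 (18.6%) were above and 329 (29.8%) below. The intervals cover counting error only, and cDNAs pile up at sites, so a call says where the cDNAs of these libraries lay.

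The shares themselves took extreme values. The median was 72.1% in replicate 1 and 69.7% in replicate 2, against a median share of length of 83.1%. At least 90% of the cDNAs lay in the extension in both replicates in 196 of the 555 genes (35.3%), of which 129 had a shared part under 200 nt, so that the extension was nearly all of the 3′UTR. At most 10% lay there in both in 105 genes (18.9%). Of the 1105 3′UTRs outside the rule, 490 (44.3%) and 41 (3.71%) fell in these classes. Their distal parts, cut at a fixed length, had a median share of length of 87.1%. Among all members the share of length of the extension went down to 11.4%. The classes were not compared at equal share of length, and its part in this contrast was not tested. With the hexamer, 189 genes were tested, with a median share of 26.6% and 21.2%, 12 above and 131 below. Without it, 366 were tested, with a median of 90.4% and 95.8%, 50 above and 106 below. The shared part had no cDNA in either replicate in 110 of these 366 genes and in 7 of the 189. Where the shared part was 200 nt or longer, 370 were tested with 48 above and 197 below, and a median share of 46.7% and 40.0%. The 161 of them with a hexamer had a median share of 17.7% and 13.0%.

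**Figure D2:**
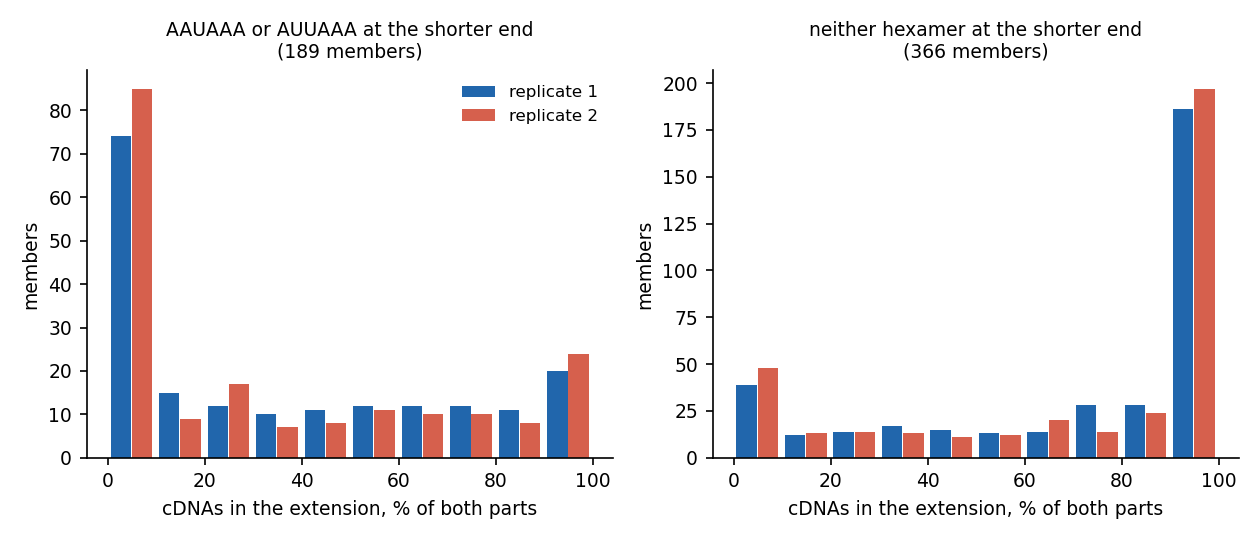
The number of members (y) in each class of 10 percentage points of the share of their cDNAs that lay in the extension (x), for hexamer genes (left, 189 members) and the others (right, 366 members), in replicate 1 (blue) and replicate 2 (red). Hexamer genes gather in the lowest class, with 74 and 86 members at or under 10%, and the others in the highest, with 186 and 197 at or above 90%.

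Genes well above the share of length were found by ranking the 159 members with at least 50 cDNAs in each replicate on the ratio of both shares. Cd24a was among the first 6, with 944 and 215 cDNAs in the extension against 36 and 0 in the shared part, a share of 96.3% and 100% against 74.1% of the length. Ptma, the prothymosin alpha gene, had all of its 112 and 72 cDNAs in the extension, within 1 cluster of 33 nt, against 67.2% of the length. This cluster reached the border of the last 100 nt, which were left out. The sialyltransferase gene St6gal1, which acts on CD22 ligands in B cells, had 244 and 47 in the extension and 30 and 5 before it. Add3, of the membrane skeleton, had 348 and 107 against 53 and 22, and was the 1 hexamer gene of the 6. Tcf3, the E2A gene of early B cell development, had 214 and 83 against 0 and 0, and Ctnnb1, the beta-catenin gene, 337 and 80 against 73 and 4. All 6 were above the length share in both replicates, which the ranking on this ratio largely sets. Genes with nearly all of their length in the extension could not reach a high ratio.

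At the other end, 21 of the 159 had no extension cDNA at all. The 6 with the most cDNAs over both parts were all hexamer genes with 2 annotated ends. Canx, the gene of the endoplasmic reticulum chaperone calnexin, had 952 and 273 cDNAs in its shared part of 1815 nt and none in 406 nt of extension, which allows a share of up to 0.387% and 1.34% by the exact interval against 18.3% of the length. The kinase gene Nek7 had 560 and 129 against 0 and 0 in 862 nt. Stx7, an endosomal SNARE gene, had 473 and 136 against 0 and 0 in 1161 nt. Rac1, a small GTPase of the actin skeleton, had 456 and 147 against 0 and 0, although 1748 nt, 53.9% of the length, lay beyond the shorter end. Manf, an endoplasmic reticulum stress gene, had 336 and 128 against 0 and 0 in 1238 nt, 81.1% of the length. Sdcbp, the syntenin gene, had 329 and 113 against 0 and 0 in 529 nt. These zeros are of low-FDR sites, and cDNAs that were too scattered to be called are not in the lists.

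**Figure D3:**
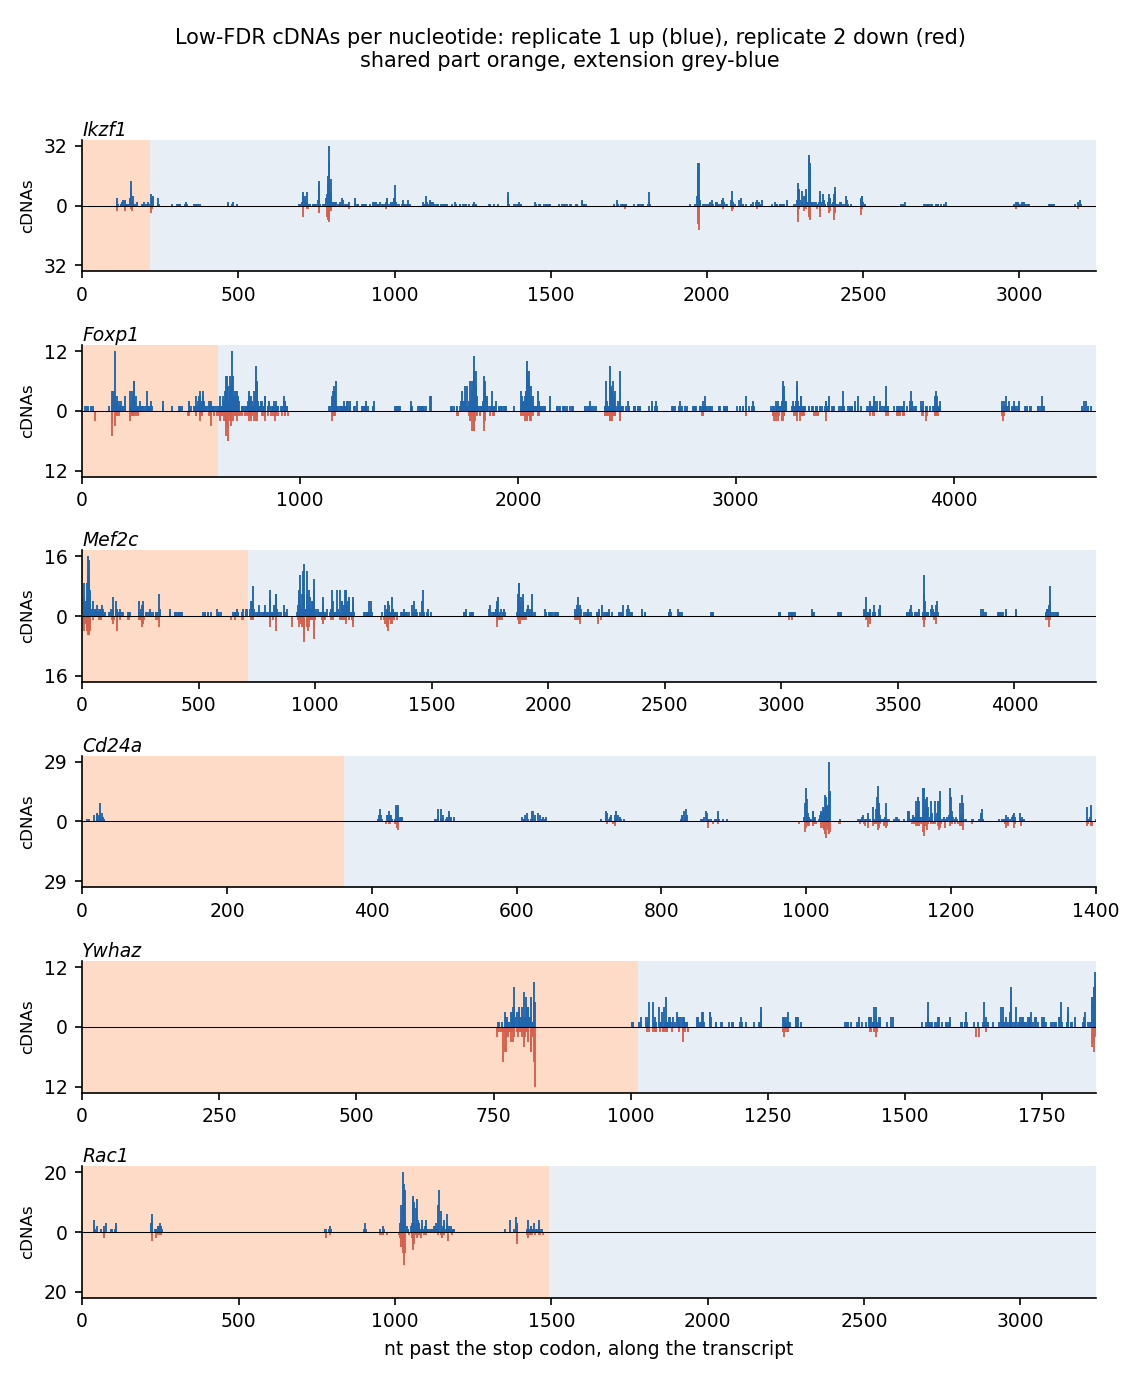
Low-FDR cDNAs at each nucleotide past the stop codon in 6 genes, replicate 1 upward in blue and replicate 2 downward in red, with the shared part shaded orange and the extension grey-blue. Cd24a has all 215 of its replicate 2 cDNAs in the extension, Rac1 has none in its extension in either replicate, and in Ywhaz the extension holds 415 of the cDNAs of replicate 1 and 55 of those of replicate 2.

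Where cDNAs lay around the shorter end was followed in the tested genes whose shared part was 300 nt or longer. In the 145 hexamer genes, the last 300 nt before the end held 7047 cDNAs in replicate 1 and the first 300 nt past it 2255. Replicate 2 had 2169 and 518. The highest 25 nt bin lay 75 to 50 nt before the end in both replicates, with 1021 and 409 cDNAs, of which Smim14 gave the most, 14.1% and 17.6%. The last 100 nt held 2.72 and 3.97 times as many cDNAs as the first 100 nt of the extension. In 85 of the 145 genes the upstream side held more in both replicates, and in 20 the downstream side did.

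Without a hexamer, the step was smaller in these libraries. In 158 genes the upstream side held 4969 cDNAs and the extension side 3116 in replicate 1, and 1356 and 700 in replicate 2. The highest bin was again 75 to 50 nt before the end, with 542 and 167 cDNAs. The last 100 nt held 1.25 and 1.47 times the first 100 nt of the extension. The upstream side held more in both replicates in 67 genes, and the extension side in 30.

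**Figure D4:**
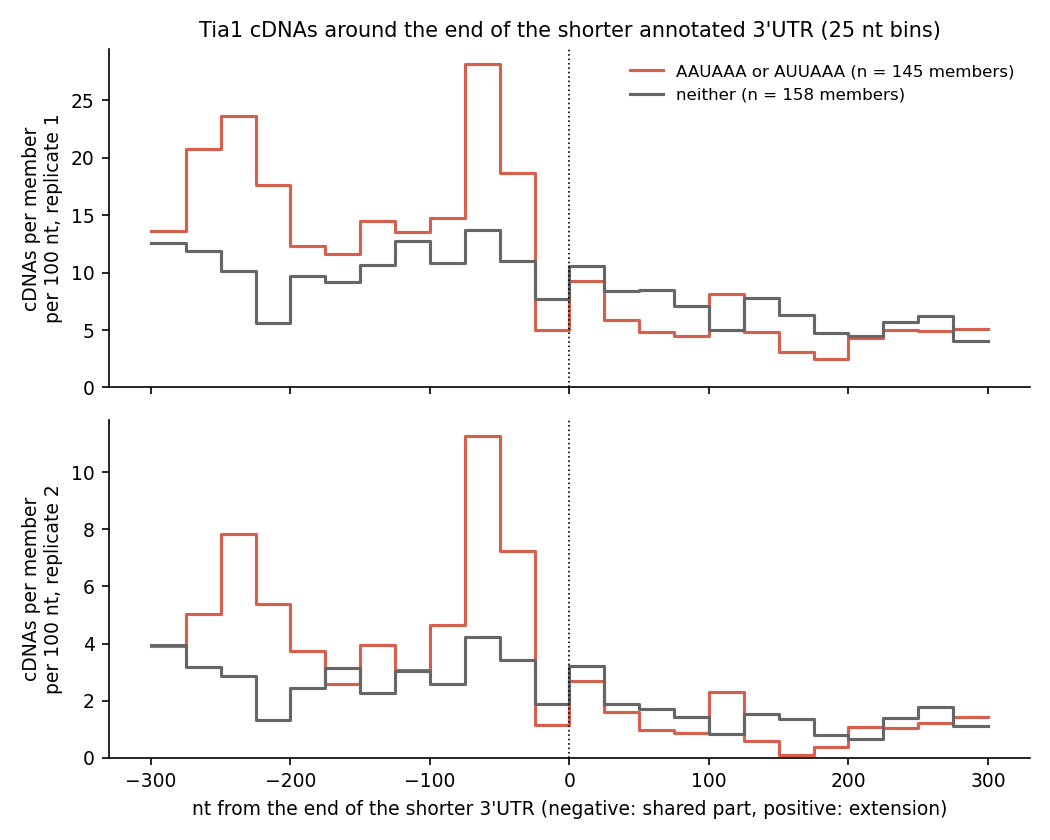
cDNAs per member and 100 nt (y) in 25 nt bins from 300 nt before to 300 nt past the end of the shorter 3′UTR (x, dotted line at the end), for 145 hexamer genes (red) and 158 others (grey), in replicate 1 (top) and replicate 2 (bottom). Both sets have their highest bin 75 to 50 nt before the end in both replicates, with 1021 and 409 cDNAs in hexamer genes and 542 and 167 in the others.

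Inside the extensions, sites were gathered at both ends and in a few places. The 355 extensions with at least 10 cDNAs in each replicate were cut into 10 equal parts. The first part held on average 18.4% and 19.4% of an extension's cDNAs, and the second 14.1% and 13.7%. This mean per extension was lowest in the sixth, with 6.63% and 6.08% in replicates 1 and 2. Summed over the extensions, the ninth part was the lowest with 4843 and 986 cDNAs, and the last held 7917 and 2075. Sites within 15 nt of each other were joined into clusters. Clusters stop at the borders of the extension, so a cluster at a border may continue beyond it. The median extension had 8 clusters, 3 of them with cDNAs in both replicates, and its largest cluster held 40.0% and 55.3% of its cDNAs.

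How concentrated the sites were differed widely between genes. In Pcbp2 1 cluster of 177 nt at the start of the extension held 591 of 610 cDNAs in replicate 1 and all 320 in replicate 2. It directly adjoined a cluster at the end of the shared part. In Nfkb1 a cluster of 236 nt that reached the far border of the extension held 340 of 364 and all 120. Zfp36l1 had 600 of 813 and 263 of 320 within 173 nt, about the site printed above, and Myl12a 480 of 584 and 200 of 225 within 99 nt. In Pax5 a cluster of 303 nt near the far end held 667 of 1336 and 164 of 231, its highest site 285 nt before the longest end. In contrast, Nucks1 spread its cDNAs over 26 clusters, 15 of them in both replicates, with 19.0% and 16.8% in the largest. Celf2 had 45 clusters, 26 in both, with 23.0% and 23.5% in the largest, and Cd47 38 clusters, 12 in both, with 10.9% and 10.6%.

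The sites in the extensions lay mostly on uridine. In a window of 31 nt centred on each site, U made up 44.8% in replicate 1 (47572 sites) and 50.3% in replicate 2 (11789 sites), compared with 32.1% in both at all positions of the same extensions. The difference was 12.6 and 18.2 percentage points, and it was above 0 in 1051 of 1069 bound extensions in replicate 1 and in 734 of 739 in replicate 2. The crosslinked nucleotide itself was U at 72.8% and 85.1% of sites. Shared parts were alike, with 44.2% and 49.8% at sites against 33.0% and 33.5% over their positions. Crosslinking by UV light itself favours uridine, and its part in these values was not tested.

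Short motifs were counted in the same windows, on the transcribed strand, for 6 chosen motifs. UUUUU was in 39.4% and 56.9% of windows at extension sites and in 9.13% and 9.47% of all windows of the same extensions, a ratio of 4.31 and 6.01. UUUUA, which overlaps with it, had a ratio of 3.48 and 4.58. AUUUA, the core of AU-rich elements, had 2.09 and 2.38, and AAUAAA 0.879 and 0.930. The rare nonamer UUAUUUAUU, which contains AUUUA, was in 0.631% and 0.959% of windows at sites, a ratio of 4.76 and 7.97, beside 2.72 and 3.33 in the shared parts. The Pumilio motif UGUAAAUA was in 0.433% and 0.517%, a ratio of 2.21 and 2.50, beside 1.28 and 1.32 in the shared parts. A match is a description of the letters, and the differences between extension and shared part were not tested.

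**Figure D5:**
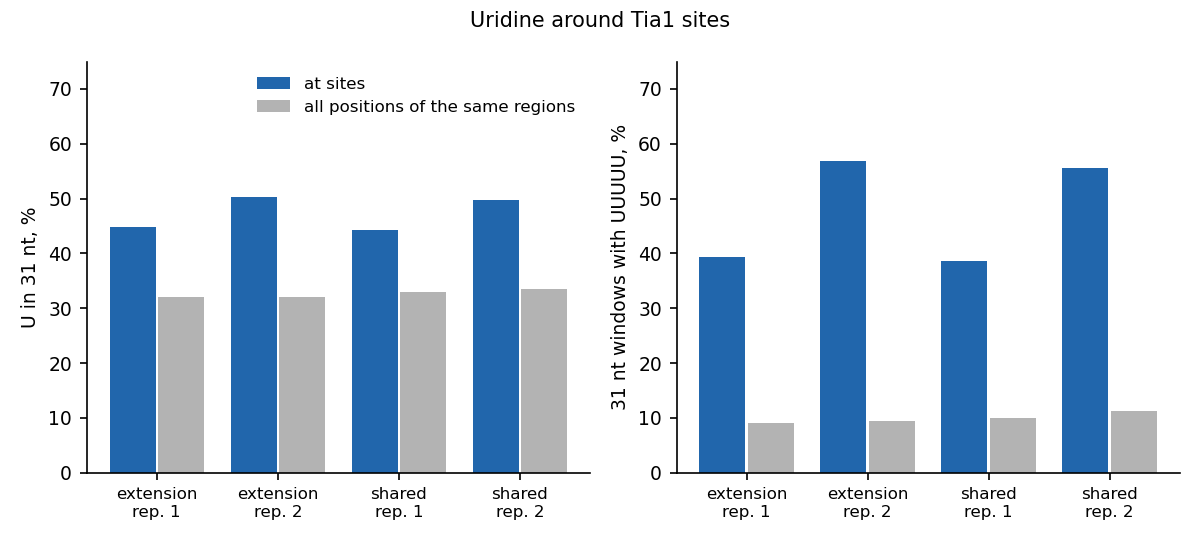
U content of 31 nt windows (left) and percent of such windows with UUUUU (right) at sites (blue) and at all positions of the same regions (grey), for extensions and shared parts in each replicate. At extension sites UUUUU was in 39.4% and 56.9% of windows, against 9.13% and 9.47% of all windows.

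The last comparison was between the replicates. The extension shares of the 555 tested genes differed by a median of 2.79 percentage points, 421 genes were within 10 points and 15 were over 30 apart. Two-sided Fisher's exact tests on the cDNAs of both parts, with Benjamini-Hochberg adjustment over the 555, called 26 genes (4.68%) at an adjusted p under 0.05, 19 with the higher share in replicate 1 and 7 in replicate 2. A cDNA counts here only at a nucleotide that passed the authors' threshold in that replicate. When both replicates were counted at every nucleotide that passed in either, 2 genes were called, both among the 26. With sites of at least 2 pooled cDNAs, 1 was called.

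The 2 genes were Ywhaz and Cd47. Ywhaz, which encodes the adaptor protein 14-3-3 zeta, had 415 cDNAs in the extension and 125 in the shared part in replicate 1 (76.9%), and 55 and 106 in replicate 2 (34.2%), with an adjusted p of 3.91e-20 by Fisher's exact test. The largest cluster of its extension, 247 nt wide, lay at the far end and reached the border of the last 100 nt, which were left out. The highest site of that cluster, next to the border, fell in a U-rich stretch with 2 runs of 4 or more U, in capitals:
Ywhaz, chr15:36770857-36770886, minus strand: agagguguaUUUUUUUUUcUUUUagaaugu
That cluster held 202 cDNAs in replicate 1 and 23 in replicate 2. With both replicates counted at nucleotides called in either, the shares of Ywhaz were 76.9% and 37.6%, with an adjusted p of 1.50e-17 by the same exact test. Cd47, the surface signal that restrains phagocytosis, had shares of 92.5% and 78.0% (adjusted p of 0.00335 by Fisher's exact test), and 92.5% and 81.1% (adjusted p of 0.0493 by the exact test) with those counts. Among the others called, Atf2 had 41.9% and 9.52% and Eif4g2 17.1% and 0% in replicates 1 and 2, and Prelid3b 0% and 46.2%, Srgn 68.8% and 100%, Cpne1 89.4% and 100% and Wdr1 76.1% and 93.2%. None of these 6 was called with both replicates counted at nucleotides called in either, although several shares stayed far apart. Those of Atf2 were then 41.9% and 14.9%, of Eif4g2 17.1% and 1.47% and of Prelid3b 2.50% and 46.2%, each with an adjusted p of 0.0599 by Fisher's exact test. The replicates differ in depth, and the test compares these 2 libraries and not conditions.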

How the data were processed

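Tia1 iCLIP of LPS-activated B cells (2 replicates, 1 group) was analysed. The authors demultiplexed reads, removed PCR duplicates by random barcodes and mapped to mm9 (Ensembl 59) in iCount. The submitters' processing notes name Bowtie, for which the sources used here give no version. The deposited values are unique cDNA counts per crosslinked nucleotide, with the sign giving the strand and no scaling to depth. Per the file headers, low-FDR sites passed an FDR under 0.05 from 100 permutations with a 15 nt neighbourhood, per replicate and on the sum. A map of all crosslinked positions of the sum was not used here. The fold and share values in the text were computed here.

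GRCm38 positions were those of the authors' lifted pooled list, row-paired to its mm9 list. It placed 98.3% of the sites (98.9% of the cDNAs) of replicate 1 and 98.7% (99.1%) of replicate 2. Within it, the extensions held 57898 sites and 107517 of 867271 pooled cDNAs (12.4%). Of 52 genes with 2 qualifying stop codons, that with the largest difference was taken. In 73 members an exon of another gene overlapped on the same strand. Sequences came from the RefSeq GRCm38 assembly.

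Shares carry exact Clopper-Pearson 95% intervals, which cover counting error only, and genes were tested with at least 10 cDNAs in each replicate. Replicates were compared by Fisher's exact test with Benjamini-Hochberg adjustment. Shares within replicates were compared by an exact sign-flip permutation test over both. The tools were scipy 1.17.1, pandas 2.3.3, numpy 2.4.6 and matplotlib 3.10.9 under Python 3.11.15. The calls were also run on simulated counts with cDNAs drawn independently, which does not cover their piling up at sites. Members, gene lists and tests were chosen with earlier results of these data known. Named genes were the 12 members with the most extension cDNAs, the 6 with the highest density, the 6 with the highest and the 6 with the lowest ratio of extension share to length share, the 4 with the smallest p in each direction between replicates, and up to 4 of each of 15 gene lists (5 of them cell type markers). Some of these are not reported here. One alternative counted both replicates at every nucleotide called in either, the missing count being the pooled count less that of the other replicate. The others changed the weight of sites, the site threshold, the region borders, the members and the minimum.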

Additional observations from a re-analysis of the deposited data

How the results depend on the processing

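Extensions bound in both replicates (719) numbered 350 when only sites of at least 5 pooled cDNAs counted, and 406 of 1747 with shared parts of 200 nt or longer (chosen after seeing the data, and the same with their last 100 nt removed) and 175 of 875 hexamer genes were bound. The mean extension share (63.5%) was 59.4% at sites of at least 5 cDNAs and 66.1% with the last 100 nt of the extension kept. It was 68.3% for differences of at least 1000 nt and 37.7% in hexamer genes. In members with shared parts of 200 nt or longer it was 50.9%, and 55.8% once the last 100 nt of these parts were removed. Each of these shares was below its share of length. Genes above their length share (62) numbered 32 when each site counted as 1, 28 at sites of at least 5 cDNAs, 37 for differences of at least 1000 nt and 12 in hexamer genes. Genes below (237) numbered 126 at sites of at least 5 cDNAs, 131 in hexamer genes and 139 with a minimum of 25 cDNAs. Calls between replicates (26) fell to 1 at sites of at least 2 or 5 cDNAs, 15 for differences of at least 1000 nt, 13 in hexamer genes and 2 with both replicates counted at nucleotides called in either. Leaving out a replicate gave 739 to 1069 bound extensions, shares of 61.7 to 65.3%, 70 to 162 genes above and 244 to 437 below. Differences in U content (15.4 percentage points, mean) ran from 12.6 to 19.4 over all alternatives, and counting each site as 1 is how U content was counted already. Of the named genes, the shares of Myl12a (92.1%) and Pcbp2 (93.7%) fell below the length share when each site counted as 1, and that of Cnot6l (86.7%) rose above it at sites of at least 5 cDNAs. Of all other values of named genes under the alternatives, 58 moved by more than the spread between replicates and 557 did not. The causes were not tested beyond what each setting removes. No paired analysis was possible because the replicate numbers pair no groups, there being 1 group, and within replicates the exact sign-flip p is at its smallest, 0.5. Replicate 2 is the shallower library and limits every count that needs both.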

Other observations

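The 100 nt before the longest annotated ends, left out of the extensions, held 7598 cDNAs in replicate 1 and 2665 in replicate 2, or 24.2 and 8.47 cDNAs per kb, compared with 12.3 and 2.77 per kb of extension. Of the sites of replicate 2, 61.7% of those in extensions and 66.2% of those in shared parts were also sites of replicate 1. Of the sites of replicate 1, the deeper library, 15.3% and 20.1% were also sites of replicate 2. Base composition of both regions was close over all members, with 30.1% U in the extensions and 29.1% U in the shared parts.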
